A study of Mus musculus with 7 samples.

Results

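The paired-box (Pax) genes encode transcription factors that bind DNA through a paired domain, and the 9 mouse members, Pax1 to Pax9, were described here through the broad regions of H3K27me3 that lie over them in liver. For each gene, every H3K27me3 region lying at least in part within 100 kb of a given mm9 coordinate at the locus was taken, so each locus is a window of 200 kb. Over 7 livers these windows held 157 of the 122262 regions listed, with 20 to 26 regions in a liver. Livers came from wild-type male CD-1 mice of 7 weeks, each animal giving its own library: 4 mice had received TCPOBOP at 3 mg/kg and 3 had received vehicle (1% DMSO in corn oil), and all livers were taken 27 h later. TCPOBOP is an agonist of the nuclear receptor CAR, which induces drug metabolism genes in mouse liver. Whole frozen liver was used, so a difference in the mix of cell types and a difference within one cell type cannot be told apart.

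H3K27me3 is the histone mark that Polycomb repressive complex 2 places, and it forms wide domains over genes of developmental regulators in tissues where these genes are silent. Pax genes are known for such domains. They direct the formation of kidney, thyroid, B lymphocytes, muscle, vertebrae, eye and pancreas, and adult hepatocytes are not known to depend on them. By sequence the family falls into the subgroups Pax2, Pax5 and Pax8; Pax3 and Pax7; Pax1 and Pax9; and Pax4 and Pax6. In mammals, wide Polycomb domains usually lie over promoters rich in the dinucleotide CG.

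Promoter sequences were available for 7 of the 9 genes, with 10 start sites among them, from RefSeq on build GRCm38.p6. Pax3 and Pax4 are named only. The 250 bases upstream of 3 starts are shown because Pax2, Pax5 and Pax8 belong to one subgroup and yet differed in H3K27me3 cover; capitals mark each CG, which reads the same on both strands. They lie at chr19:44756656-44756905 on the plus strand for the Pax2 start with the most CG, at chr4:44710695-44710944 on the minus strand for Pax5 and at chr2:24475600-24475849 on the minus strand for Pax8. The H3K27me3 regions are on mm9, and no position was compared between the builds.
Pax2: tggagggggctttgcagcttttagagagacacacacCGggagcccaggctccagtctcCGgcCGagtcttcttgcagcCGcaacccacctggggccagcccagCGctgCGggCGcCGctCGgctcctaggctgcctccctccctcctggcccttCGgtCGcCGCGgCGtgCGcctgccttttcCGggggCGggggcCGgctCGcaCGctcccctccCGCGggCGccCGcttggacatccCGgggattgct
Pax5: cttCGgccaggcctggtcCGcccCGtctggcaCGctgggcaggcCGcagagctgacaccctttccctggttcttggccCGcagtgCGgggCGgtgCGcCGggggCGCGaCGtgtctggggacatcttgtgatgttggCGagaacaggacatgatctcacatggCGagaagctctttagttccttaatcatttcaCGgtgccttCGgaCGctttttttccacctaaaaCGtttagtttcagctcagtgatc
Pax8: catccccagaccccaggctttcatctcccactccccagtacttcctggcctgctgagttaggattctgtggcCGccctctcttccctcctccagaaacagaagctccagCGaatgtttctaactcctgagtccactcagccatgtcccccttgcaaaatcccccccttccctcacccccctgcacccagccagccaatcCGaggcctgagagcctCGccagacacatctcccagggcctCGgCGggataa
These stretches held 25 CG for Pax2, 19 for Pax5 and 6 for Pax8. The median of all 32841 promoters in the table was 6, and 92.1% of them held at least 1 CG. Among the other starts, CG numbered 5 and 20 at the other Pax2 starts, 15 at each Pax6 start, 13 at Pax7, 10 at Pax1 and 7 at Pax9. Of the 10 starts, 8 were above the median of all promoters. This is a count of letters in a short window and was not tested against the H3K27me3 values.

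The regions are islands as called by SICER, a program for broad marks that joins enriched windows of 400 bp across gaps of up to 2400 bp. The measures below describe a locus in a liver. Cover is the length of the 200 kb window lying under islands, width is the full length of an island, also beyond the window, and the score rank places an island's SICER score in that liver's own list, with rank 1 the highest. A score adds up over an island and so grows with width and with sequencing depth, for which reason scores were read as ranks within a list. The lists held 14167 to 20550 islands and 537 to 605 Mb in total, and the number of reads behind them was not given in the files. Replicate 2 of TCPOBOP and replicate 2 of vehicle stood apart, with the least total length in both cases, 537 Mb. Other loci, chosen with earlier results of these data known, are given for scale and test nothing. Among developmental regulators, the windows at the HoxA cluster, the HoxD cluster and Sox1 were covered over 193 to 200 kb in all 7 livers. The Sox1 island had rank 1 in 6 lists and rank 2 in vehicle replicate 1. At Alb, the albumin gene that defines hepatocytes, no island was listed in any liver. At Apoa1, an apolipoprotein gene of hepatocytes, islands covered 27.6 to 28.8 kb in TCPOBOP livers and 28.40 to 30.8 kb in vehicle livers, with none nearer than 68.8 kb to the coordinate.

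**Figure D1:**
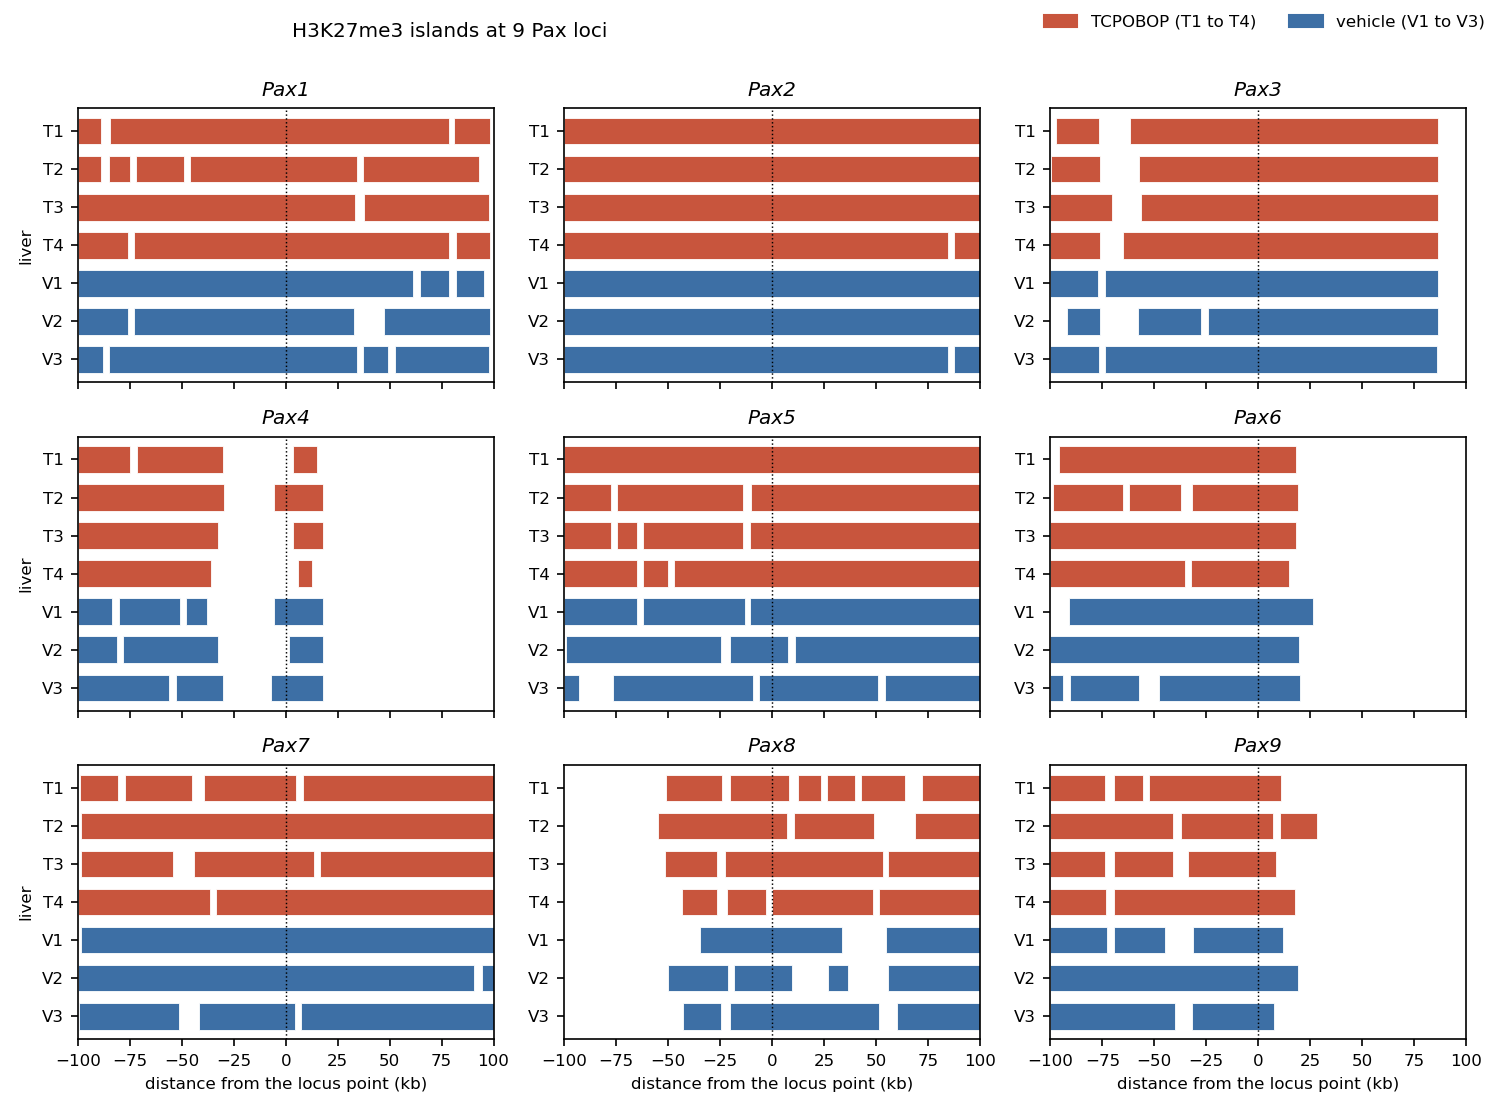
Islands at the 9 Pax loci, clipped at 100 kb to each side of the given mm9 coordinate; the horizontal axis is distance from that coordinate in kb, and each row is a liver (T1 to T4 TCPOBOP, V1 to V3 vehicle). Bars run across nearly the whole window at Pax2, Pax5, Pax7 and Pax1, while at Pax4, Pax6 and Pax9 the outer right part, from 18, 26.4 and 28.40 kb onward, is free of islands in every liver.

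All 9 Pax windows had more cover than the average window of the autosomes. Mean cover over the 7 livers was 99.6% at Pax2, 96.4% at Pax7, 95.8% at Pax5, 93.9% at Pax1, 86.1% at Pax3, 63.8% at Pax8, 57.1% at Pax6, 53.5% at Pax9 and 41.1% at Pax4. The 12342 windows of 200 kb that tile the autosomes had a mean of 23.2% and a median of 12.40%. In a limma fit of each window's cover minus the mean of its liver, with livers as replicates, all 9 Pax windows were called above that mean, against 41.1% of the 9141 windows tested. The excess was 76.4 percentage points at Pax2 (SE 1.03, n = 7 livers, limma adjusted p = 5.13e-11) and 18.1 points at Pax4 (SE 2.69, n = 7 livers, limma adjusted p = 0.000179). The call alone is therefore common, and it is the size of the excess that set the Pax loci apart from each other.

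In the order of mean cover, the loci formed an upper group of 5 and a lower group of 4. Pax2 had more cover than 99.96% of all windows and stood at place 4 of 12342, Pax7 at place 66, Pax5 at 77, Pax1 at 151 and Pax3 at 394. Pax8 stood at 1364, Pax6 at 1757, Pax9 at 1973 and Pax4 at 2907, the last with more cover than 76.4% of windows. A mean of 75% or more was reached by 5 Pax windows and by 6.98% of all windows. Of the 8 neighbouring pairs in this order, 2 had ranges over livers that did not overlap. The lowest Pax3 liver, at 78.4%, was above the highest Pax8 liver, at 72.6%, and the lowest Pax9 liver, at 47.6%, was just above the highest Pax4 liver, at 47.0%. Pax2, Pax7, Pax5 and Pax1 overlapped from one to the next, as did Pax1 with Pax3, Pax8 with Pax6 and Pax6 with Pax9, although Pax1 exceeded Pax3 in each of the 7 livers.

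**Figure D2:**
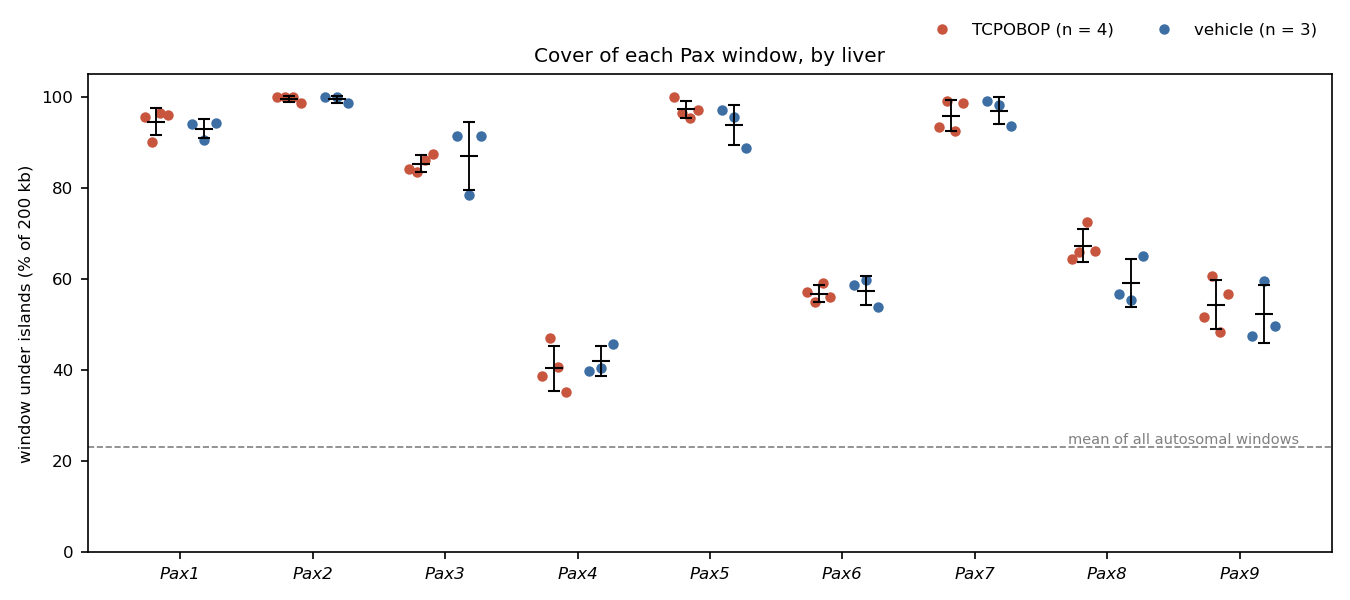
Cover of each 200 kb Pax window by H3K27me3 islands; dots are livers, with TCPOBOP left of vehicle at each locus, bars give the mean ± SD (n = 4 and 3), and the dashed line is the mean of all autosomal windows, 23.2%. Pax2 lies between 98.6% and 100%, Pax4 between 35.2% and 47.0%, and at each locus the TCPOBOP and vehicle dots overlap.

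Pax2, which directs the formation of kidney and urogenital tract, had the most complete domain. Its window, from 44730001 to 44930000 on mm9 chromosome 19, was covered over 200, 200, 200 and 197.2 kb in TCPOBOP replicates 1 to 4, against 200, 200 and 197.2 kb in vehicle replicates 1 to 3. Its main island was 279, 289, 282 and 262 kb wide in the TCPOBOP livers, against 292, 284 and 269 kb in the vehicle livers. That island had score rank 6, 4, 4 and 5 in the TCPOBOP lists, against 4, 3 and 8 in the vehicle lists. A single island therefore ran across the window in 5 of 7 livers, always among the 8 highest scores of its list. Merged over livers it spanned 296 kb, from 44640001 to 44936400 on mm9 chromosome 19, and 98.6% of the window length under an island in any liver was under one in all 7.

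Pax5, the factor of B lymphocyte commitment, was the locus at which the widest island separated the groups. In the window from 44530001 to 44730000 on mm9 chromosome 4, cover was 200, 193.2, 190.8 and 194.4 kb in the TCPOBOP livers, against 194.4, 191.2 and 177.6 kb in the vehicle livers. The groups overlapped in cover, and the mean was 195 ± 3.90 kb in TCPOBOP livers and 188 ± 8.92 kb in vehicle livers (SD, n = 4 and 3). The widest island measured 273, 150, 148 and 184 kb in the TCPOBOP livers, against 136, 108 and 83.6 kb in the vehicle livers. Here every TCPOBOP liver was above every vehicle liver, with a two-sided exact permutation p of 0.0857 for the difference of means. Of the 6057 autosomal windows with an island in every liver, 4.59% had groups apart in width. The score rank of the widest Pax5 island was 30, 92, 117 and 65 in the TCPOBOP lists, against 151, 155 and 235 in the vehicle lists. In TCPOBOP replicate 1 a single island crossed the window, and the other TCPOBOP livers held 3 or 4 islands there, as did the vehicle livers. Every base of the window was under an island in at least 1 liver, and 158 kb of it was so in all 7. The longest stretch under an island in every liver was the outermost 45.6 kb on the right, from 44684401 to 44730000. The merged region reached from 44492401 to 44770400, or 278 kb.

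Pax8, which acts in thyroid follicular cells and kidney, had shorter islands, whose position was shared least among the livers. In the window from 24200001 to 24400000 on mm9 chromosome 2, cover was 128.8, 132, 145.2 and 132.4 kb in the TCPOBOP livers, against 113.6, 110.8 and 130.4 kb in the vehicle livers. The window held 3 to 6 islands in TCPOBOP livers and 2 to 4 in vehicle livers, and the widest was 60.8 to 76.4 kb in TCPOBOP livers and 48.0 to 78.4 kb in vehicle livers. Only 42.4% of the length under an island in any liver was under one in all 7, the lowest share among the 9 loci. No liver had an island in the outermost 45.2 kb on the left, and the longest stretch under an island in all livers was the outermost 27.6 kb on the right. The best score ranked 1981, 2275, 1335 and 1768 in the TCPOBOP lists, against 1195, 3638 and 1667 in the vehicle lists. In every liver the best-scoring island was also the widest, and it began 51.6 to 72.4 kb right of the coordinate. The island over the coordinate ranked 1904 to 7741 in the TCPOBOP lists and 2182 to 6551 in the vehicle lists. Within its subgroup, the Pax8 window was thus below the Pax2 and Pax5 windows in cover, width and score rank in every liver.

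Pax3, a factor of neural crest and early muscle, had a domain whose right end lay at the same place in every liver. In the window from 78050001 to 78250000 on mm9 chromosome 1, cover was 168.4, 167.2, 172.4 and 175.2 kb in the TCPOBOP livers, against 182.8, 156.8 and 182.8 kb in the vehicle livers, so the vehicle livers lay on both sides of the TCPOBOP livers. The widest island was 148, 144, 143 and 152 kb in the TCPOBOP livers, against 160, 111 and 160 kb in the vehicle livers. Score ranks were 41, 119, 88 and 62 in the TCPOBOP lists, against 75, 180 and 44 in the vehicle lists. That right end fell between 78236000 and 78236400 in all 7 livers, a spread of 0.4 kb. From 78125601 to 78236000, a stretch of 110 kb, every liver had an island, and the left end of the widest island lay between 78076401 and 78125601. No island was listed in any liver over the remaining 13.6 kb of the window.

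Pax7, the factor of muscle satellite cells, had a wide domain that was broken up in some livers. In the window from 139240001 to 139440000 on mm9 chromosome 4, cover was 186.8, 198.4, 185.2 and 197.2 kb in the TCPOBOP livers, against 198.4, 196.4 and 187.2 kb in the vehicle livers. Its widest island was 160, 254, 96.4 and 200 kb in the TCPOBOP livers, against 204, 194 and 94.8 kb in the vehicle livers. Score ranks were 60, 21, 235 and 33 in the TCPOBOP lists, against 55, 37 and 132 in the vehicle lists. One liver of each group, both numbered 3, thus had a widest island under 100 kb, and those had the lowest placed scores of their group, while cover stayed above 92% in every liver. The merged region was the longest of the 9 loci, 304 kb, from 139204801 to 139508400. Within the window, 167 kb was under an island in all 7 livers, the longest such stretch being 74.4 kb on the right of the coordinate.

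Pax1, which acts in the sclerotome that forms the vertebrae, had a wide domain between Nkx2-2 and Foxa2 in the RefSeq gene order. Its window, from 147090001 to 147290000 on mm9 chromosome 2, was covered over 191.2, 180.4, 193.2 and 192 kb in the TCPOBOP livers, against 188.4, 181.2 and 188.8 kb in the vehicle livers. The widest island was 163, 80.4, 152 and 152 kb in the TCPOBOP livers, against 175.2, 106.0 and 119.6 kb in the vehicle livers. Score ranks were 124, 507, 203 and 172 in the TCPOBOP lists, against 154, 470 and 149 in the vehicle lists. Replicate 2 was the lowest of its group in cover, width and score rank in both groups, the same libraries that had the least total island length. The part played by those libraries was not tested. In all 7 livers, 157 kb of the window was under an island, with the longest shared stretch, 78.8 kb, running from 147144001 to 147222800 across the coordinate.

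Pax9, a factor of teeth and pharyngeal pouches that lies beside Nkx2-9 in the RefSeq gene order, had its islands mainly on the left side of its window, which ran from 57700001 to 57900000 on mm9 chromosome 12. Cover was 103.6, 121.6, 96.8 and 113.6 kb in the TCPOBOP livers, against 95.2, 119.2 and 99.6 kb in the vehicle livers. The widest island was 63.6, 73.6, 42.0 and 86.8 kb in the TCPOBOP livers, against 43.6, 133 and 74.0 kb in the vehicle livers. The best score ranked 437, 731, 943 and 368 in the TCPOBOP lists, against 842, 186 and 482 in the vehicle lists. From 28.40 kb right of the coordinate to the end of the window, a stretch of 71.6 kb, no liver had an island. The left end of the domain lay between 57685601 and 57686401 on mm9 chromosome 12 in all 7 livers, a spread of 0.8 kb. Left or right ends that all 7 livers shared to within 800 bp were found at Pax3 and Pax9 alone among the 9 loci, which made 4.46% of the 314 Pax island ends, against 2.72% of the 244212 island ends on the autosomes.

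**Figure D3:**
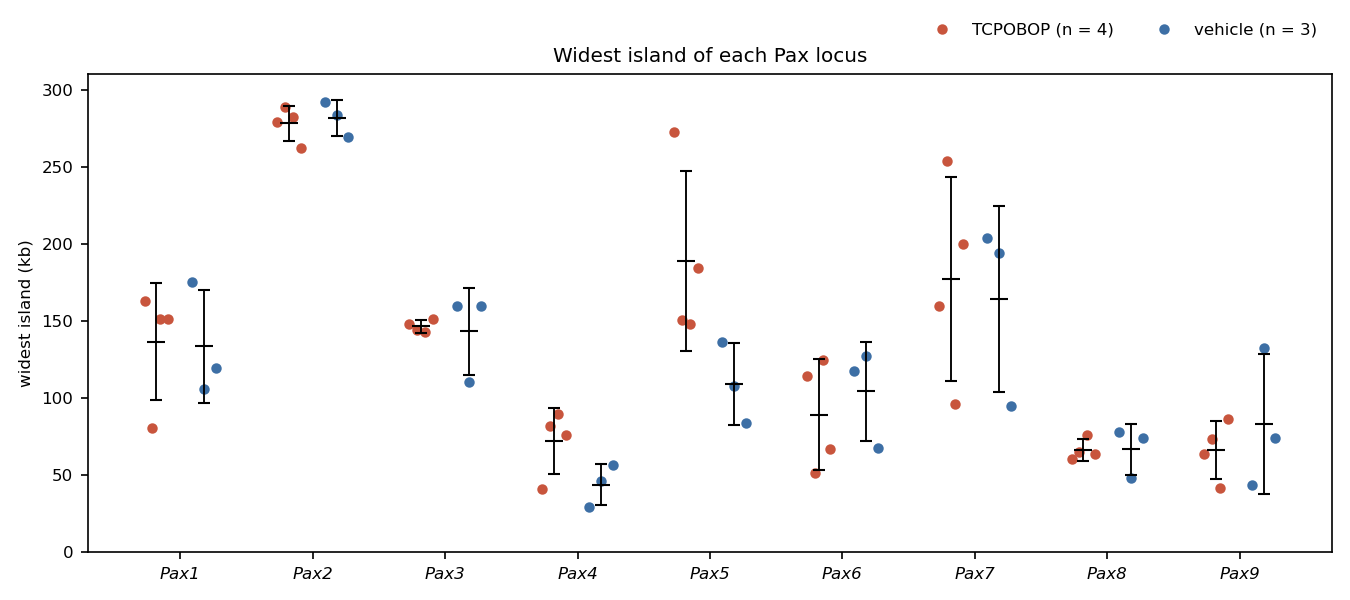
Width of the widest island touching each Pax window, in kb; dots are livers, with TCPOBOP left of vehicle, and bars give the mean ± SD (n = 4 and 3). Pax2 lies between 262 and 292 kb, Pax7 spreads between 94.8 and 254 kb, and Pax5 is the locus at which all TCPOBOP dots, from 148 kb, are above all vehicle dots, up to 136 kb. Groups were apart in width in 4.59% of the 6057 autosomal windows with an island in every liver.

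Pax6, the regulator of eye, forebrain and pancreatic islets, combined moderate cover with high scores. In the window from 105420001 to 105620000 on mm9 chromosome 2, cover was 114.4, 110, 118.4 and 112 kb in the TCPOBOP livers, against 117.6, 119.6 and 107.6 kb in the vehicle livers. Score ranks were 87, 130, 121 and 130 in the TCPOBOP lists, against 161, 103 and 123 in the vehicle lists. Pax6 therefore ranked beside Pax3 and Pax7 in score although its cover was that of Pax8 and Pax9. The widest island was 114, 51.2, 125 and 67.2 kb in the TCPOBOP livers, against 118, 128 and 68.0 kb in the vehicle livers. In TCPOBOP replicates 2 and 4 and in vehicle replicate 3 the island over the coordinate was separate from those to its left. There the score per 400 bp of that island was 6.86 and 6.42 times the list median in the TCPOBOP livers, against 4.20 times in the vehicle liver, while the separate islands to the left had 0.998 to 1.52 times the median in the TCPOBOP livers and 0.826 to 1.67 times in the vehicle liver. No liver had an island from 26.4 kb right of the coordinate to the end of the window.

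Pax4, a factor of the endocrine pancreas that lies between Fscn3 and Snd1 in the RefSeq gene order, had the least cover. In the window from 28290001 to 28490000 on mm9 chromosome 6 it was 77.6, 94, 81.6 and 70.4 kb in the TCPOBOP livers, against 79.6, 81.2 and 91.6 kb in the vehicle livers. The widest island was 41.2, 82.0, 90.0 and 76.0 kb in the TCPOBOP livers, against 29.6, 46.00 and 56.4 kb in the vehicle livers. Its best score ranked 3095, 1974, 1118 and 1707 in the TCPOBOP lists, against 6879, 2630 and 3687 in the vehicle lists. Pax4 was the one locus of the 9 whose coordinate was not under an island in every liver: it was covered in 1 of 4 TCPOBOP livers and 2 of 3 vehicle livers. All 7 livers had islands over 53.6 kb of the window in common, in 6 stretches of up to 16.4 kb, and none had an island from 18 kb right of the coordinate onward. Per 400 bp, its island with the best total score had 0.968 to 1.24 times the list median in TCPOBOP livers and 0.839 to 1.41 times in vehicle livers, against 3.02 to 4.06 and 2.70 to 4.55 times at Pax2. Except in vehicle replicate 1, that Pax4 island ended 29.6 kb or more left of the coordinate, as the widest island did in every liver. The island over or just right of the Pax4 coordinate had 1.42 to 2.99 times the list median in TCPOBOP livers. In vehicle livers it had 1.16 to 1.93 times.

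**Figure D4:**
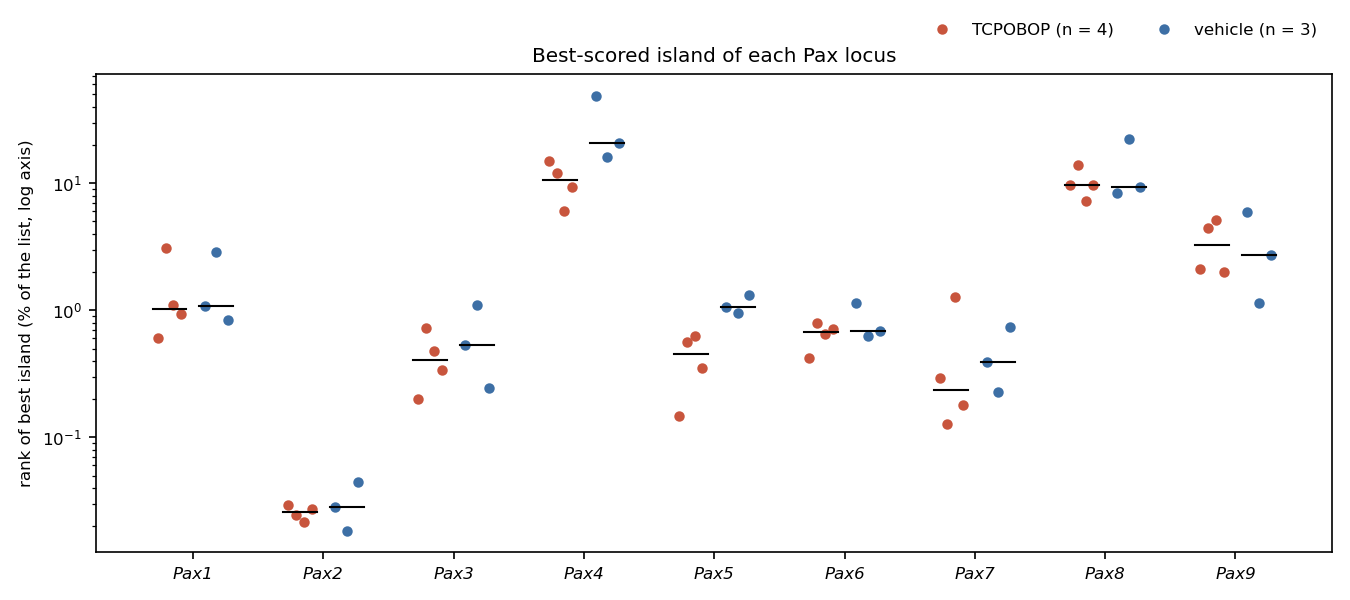
Rank of the best-scoring island at each Pax locus as percent of the islands in its liver's list, on a log axis where low values are high scores; dots are livers, with TCPOBOP left of vehicle, and bars mark medians. Pax2 lies under 0.05% in every list, and at Pax5 and Pax4 all TCPOBOP dots are below all vehicle dots. Groups were apart in this measure in 3.81% of the 6057 autosomal windows with an island in every liver.

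Across the family the score rank thus separated loci that cover did not. Only at Pax2 was the best island among the top 1% of its list in all 7 livers, and at 7 of the 9 loci it was among the top 10% in all 7. Pax4 and Pax8 were the exceptions. Of the 6057 autosomal windows with an island in every liver, 1.30% met the stricter limit for every list and 16.97% the wider one. In the Pax windows the livers resembled each other more closely than over the autosomes as a whole. The length under islands in both livers of a pair, divided by the length under islands in either, was 0.865 to 0.924 over the 21 pairs in the Pax windows, against 0.590 to 0.650 over the autosomes. The pairs share livers, and the ratio is bound to be high where cover is nearly complete, so this is a description.

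TCPOBOP and vehicle livers were then compared at each locus, to see whether CAR activation for 27 h came with a change of H3K27me3 at these genes. In the limma fit over all windows none of the 9 Pax windows was called, and of the 9141 windows tested 0% were called, while 296, or 3.24%, had an unadjusted p under 0.05 and none of these was a Pax window. The difference in cover, TCPOBOP minus vehicle, ran from -1.67 percentage points at Pax3 (SE 3.68, limma adjusted p = 1.00) to 8.17 points at Pax8 (SE 4.36, limma adjusted p = 1.00). At none of the 9 loci were the groups apart in cover, against 3.18% of the 9141 windows. Exact permutation of the group labels has 35 arrangements here, so the smallest p it can give is 0.0286.

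For Pax8 the mean cover was 135 ± 7.25 kb in TCPOBOP livers and 118 ± 10.6 kb in vehicle livers (SD, n = 4 and 3), a difference of 16.3 kb with a 95% interval of -1.6 to 41 kb (two-sided exact permutation p = 0.0571). The size of this difference, 8.17 percentage points, moved with the processing. It was 16.1 points with 50 kb to each side (limma unadjusted p = 0.0389, adjusted p = 0.984) and 1.73 points with 200 kb to each side. It was 2.73 points with islands at or above the median score and 4.42 points with lists of equal total length. Without vehicle replicate 3 it was 11.2 points (limma unadjusted p = 0.0476, adjusted p = 0.994). Of all windows, 3.38% with 50 kb to each side and 3.10% without vehicle replicate 3 had an unadjusted p under 0.05. For Pax5 the difference was 6.87 kb, with an interval of -3.6 to 22.4 kb (exact permutation p = 0.286). With 200 kb to each side the Pax5 groups were apart, at 5.94 percentage points more cover with TCPOBOP (exact permutation p = 0.0286), against 2.995% of 5109 such windows with groups apart. Over the same-numbered pairs that difference was 5.97 points, positive in 3 of 3 pairs (exact sign-flip permutation p = 0.25, the smallest that 3 pairs allow). Groups that are apart give this sign and p in any pairing, so the pairs add no support. At 100 kb to each side, the Pax5 difference of 3.43 points was 0.90 without vehicle replicate 3. At Pax2 the interval was the narrowest, -4.6 to 2.8 kb about a difference of 0.233 kb. At Pax1 it was -17.4 to 12.40 kb, at Pax3 -15.6 to 18.4 kb, at Pax4 -27.6 to 27.2 kb, at Pax6 -9.8 to 10.8 kb, at Pax7 -17.6 to 13 kb and at Pax9 -24 to 33.8 kb. These intervals hold the differences that the permutation test did not exclude with 4 and 3 livers.

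Summed over the 9 windows, cover was 1371, 1397, 1384 and 1384 kb in the TCPOBOP livers, against 1370, 1356 and 1363 kb in the vehicle livers. The lowest TCPOBOP liver was just above the highest vehicle liver, at 76.16% of the windows against 76.11%. The sum was not tested, and no share of such sums over other windows was computed. Mean cover of all autosomal windows was 21.71 to 24.44% in TCPOBOP livers and 21.70 to 23.72% in vehicle livers. The means were 76.9 ± 0.590% of the windows with TCPOBOP and 75.7 ± 0.378% with vehicle (SD, n = 4 and 3). That difference, 20.8 kb, was 13.2 kb without replicate 2 of both groups, 2.23 kb with windows of 200 kb to each side and 35.8 kb with the lower-scoring islands of each list left out.

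At each of the 9 loci the groups were compared in cover, width and score rank as percent of the list, 27 comparisons in all. The widest island was apart at 1 of the 9 loci, Pax5, against 4.59% of the 6057 windows with an island in every liver. The best score as percent of its list was apart at 2 of the 9, Pax5 and Pax4, against 3.81% of the same windows. For Pax5 it was 0.146, 0.558, 0.632 and 0.353% of the list in the TCPOBOP livers, against 1.07, 0.951 and 1.32% in the vehicle livers (two-sided exact permutation p = 0.0286, the smallest possible). For Pax4 it was 15.1, 11.98, 6.04 and 9.28% in the TCPOBOP livers, against 48.6, 16.1 and 20.7% in the vehicle livers (exact permutation p = 0.0286). The Pax4 groups were apart only on this scale, since the ranks themselves, 1118 to 3095 in TCPOBOP lists and 2630 to 6879 in vehicle lists, overlapped (exact permutation p = 0.0857) and the lists differed in length. The Pax4 value of 48.6% came from vehicle replicate 1, where the best-scoring island lay over the coordinate, from 28384401 to 28408000, while in the other 6 livers it lay to the left. Over the pairs of same-numbered livers, the Pax5 and Pax4 differences had means of -0.666 and -17.4 percent of the list. Their sign was the same in 3 of 3 pairs (exact sign-flip permutation p = 0.25 for each, the smallest that 3 pairs allow). Both outcomes were fixed in advance, because groups that are apart give them in any pairing, so the pairs add no support.

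The islands were also ranked anew by score per 400 bp, taking the highest such island in each window. The best Pax5 island then stood at 8.25, 4.33, 4.18 and 2.94% of the list in the TCPOBOP livers, against 3.61, 2.65 and 2.31% in the vehicle livers. These groups overlapped, and the difference of the means turned to 2.07 percent of the list (exact permutation p = 0.143). At Pax4 the values were 6.57, 24.4, 14.7 and 1.65% in the TCPOBOP livers, against 2.78, 13.04 and 13.3% in the vehicle livers, which overlapped as well (difference 2.13, exact permutation p = 0.743). In TCPOBOP replicate 4 the Pax5 island taken here was not the one with the best total score. At Pax4 the island taken here was not the one with the best total score in any liver. Placed by score per 400 bp, the Pax4 islands with the best total score overlapped between the groups too (difference -1.59, exact permutation p = 0.971). By score per 400 bp, the Pax5 island with the best total score stood at 4.18 to 8.25% of the list in TCPOBOP livers. In vehicle livers it stood at 2.31 to 3.61%. These groups were apart in the other direction, with the TCPOBOP livers placed lower (exact permutation p = 0.0571). The share of all windows with groups apart was not computed for this measure, and the cause was not tested.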

How the data were processed

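H3K27me3 ChIP-seq was done on single livers with Abcam antibody ab6002, per the labels' protocols. The authors deposited, for each liver, a list of SICER islands whose value is a score with no stated scale. Bowtie2 2.3.2, SICER 1.1 and build mm9 come from the submitters' processing notes, and the window of 400 bp, the gap of 2400 bp and the E-value of 100 from the list names. Input control, duplicate handling, filters and read depth are not given in the sources used here, so the precision rests on the 7 livers alone. All island widths were multiples of 400 bp, and island starts were read as counted from 0.

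Cover, width and score rank were computed per window with Python 3.11.15 and NumPy 2.4.6. Windows of 200 kb tiled the 19 autosomes, and those overlapping a Pax window were replaced by the 9 Pax windows. limma 3.58.1 (R 4.3.3, trended and robust) tested percent cover with Benjamini-Hochberg adjustment at 0.05 over windows that varied among livers. It was tested on simulated data with a far larger change in cover than any at the Pax loci. Changes of the size seen there were not simulated. Single loci were compared by two-sided exact permutation, with 95% intervals from inverting that test on a grid of 0.2 kb. All 9 loci were named. The members and lists were chosen with earlier results of these data known. The coordinates at the loci were given and not checked against an mm9 annotation, so distances are to these coordinates and not to start sites.

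Replicate numbers from the labels are shared by the groups, and deviations from the group means correlated between same-numbered livers at 0.121, 0.498 and 0.161. All were above 0.1, so the numbers were taken to pair the livers, a pairing drawn from the data and not stated in the labels. Livers with different numbers reached 0.177, so only the pair numbered 2 stood out. Alternatives were other window sizes, islands at or above the median score, lists of equal total length, a rank by score per 400 bp, each replicate left out, the replicate block and, chosen after seeing the data, replicate 2 of both groups left out and the block on score place, width and 400 kb cover.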

Additional observations from a re-analysis of the deposited data

Results flagged for a closer look

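Dixon's test was made on 28 sets of 4 values at the 9 loci, all from TCPOBOP livers. It marked 1 value in each of 4 sets. Its cutoff would mark about 1 in 20 independent sets of normally distributed values. The sets here share livers and islands, and cover is bounded by the window, so the count cannot be set against that rate. Pax1 cover was 180.4 kb in TCPOBOP replicate 2, against 191.2, 192.0 and 193.2 kb in the other TCPOBOP livers. The widest Pax1 island was 80.4 kb in the same liver, against 152, 152 and 163 kb. Pax2 cover was 197.2 kb in TCPOBOP replicate 4, against 200 kb in each of the others, and its window held 2 islands in place of 1. The others sat at the ceiling of the window, so any liver short of full cover would have been marked. The best Pax7 score stood at 1.27% of the list in TCPOBOP replicate 3, against 0.127, 0.179 and 0.292%.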

How the results depend on the processing

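All 9 Pax windows were called above the mean of all windows, and none between TCPOBOP and vehicle, in every alternative in which they were tested; with 50 kb to each side Pax2 was fully covered in all livers, which left 8. The direction of the cover difference was not stable at 6 loci, none of which passed a test. In percentage points, TCPOBOP minus vehicle, it turned to 1.07 at Pax3 with 50 kb to each side. With 200 kb to each side it turned to -1.59 at Pax2, 0.05 at Pax7 and -0.38 at Pax9, and was 5.94 at Pax5, which made 1 locus with an exact p under 0.05 in place of 0. With islands at or above the median score it was 1.83 at Pax3, 6.92 at Pax4, 0.38 at Pax6 and -0.13 at Pax9. Lists of equal total length gave 0.38 at Pax6. With one liver, or replicate 2 of both groups, left out it ran from -0.35 to 0.47 at Pax2, -6.0 to 0.50 at Pax3, -4.53 to 0.25 at Pax4, -2.45 to 1.17 at Pax6, -2.75 to 0.0667 at Pax7 and -0.25 to 5.75 at Pax9. At Pax1, Pax5 and Pax8 it kept its direction but not its size, with 0.30 to 3.53 at Pax1, 0.90 to 5.94 at Pax5 and 1.73 to 16.1 at Pax8 over the alternatives. The summed difference of 20.8 kb became 2.23 kb with 200 kb to each side and 35.8 kb with islands at or above the median score. The median over loci of the best score was 0.689% of the list and became 3.53% when ranked by score per 400 bp. With the replicate block the summed difference was 20.7 kb and the Pax4 difference turned to 0.13 points, and no Pax window was called on cover at 100 kb to each side, as without it. For the Pax5 and Pax4 score place and the Pax5 cover at 200 kb to each side, the block, added after seeing the data, gave an exact p of 0.25, the smallest that 3 pairs allow. With the groups apart in these measures, that p was fixed in advance. Ranked by score per 400 bp, with the highest such island taken in each window, the score place difference turned to 2.07 at Pax5 and 2.13 at Pax4. For the islands with the best total score, it was 2.55 at Pax5 and kept its direction at Pax4, at -1.59. The causes were not tested. The read depth is unknown, and 4 and 3 livers limit what could be detected.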
